A study of Mus musculus with 8 samples.

Results

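The TGF-β ligands, receptors and Smads examined here were 10 genes, Tgfb1, Tgfb2, Tgfb3, Tgfbr1, Tgfbr2, Tgfbr3, Smad2, Smad3, Smad4 and Smad7, chosen by their symbols among the 24639 gene entries of the count lists. All 10 had counts in every library and passed the filter on low counts in each comparison. Their levels were compared between cultured primary glomerular mesangial cells of wild-type mice (WT MMC) and of miR-379 knockout mice (miR-379KO MMC), both on the C57BL/6J strain. The knockout mice carried on both alleles a short deletion in the miR-379 region made with CRISPR-Cas9 nickase. Both genotypes were grown in RPMI medium with 10% fetal bovine serum and received no treatment. The cultures were started from glomeruli that the methods describe as pooled, and the labels do not give the age of the mice. The study calls A and B independent samples without naming separate mice or cultures, so the p-values below measure the spread between such samples.

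Each genotype was sequenced as total RNA and as RNA recovered with antibody to AGO2 (AGO2-IP), giving 4 groups of 2 libraries. AGO2 is the Argonaute protein that holds a microRNA and its bound target RNA. Total RNA libraries held from 17168230 to 22660743 gene counts. AGO2-IP libraries held from 5587611 to 17095021, of which Rn45s and Lars2 took 80.0% to 89.0%, leaving 1115782 to 1875037 counts for all other genes. Among uniquely placed reads, 46.6% and 49.7% lay outside genes in WT AGO2-IP, compared to 73.4% and 76.4% in miR-379KO AGO2-IP. All 11 mesangial cell markers, among them Pdgfrb, Acta2 and Vim, were above 1 CPM (counts scaled to the library total, with TMM factors set within the assay) in total RNA of both genotypes. Markers of other glomerular and kidney cells were mixed in total RNA. Of the 7 podocyte markers 4 were above 1 CPM in both genotypes, among them Synpo at 195 to 516 CPM and Wt1 at 28.8 to 93.4 CPM, while 2 had 0 counts, and the list summed to 244 to 634 CPM. Of the 7 endothelial markers Flt1 (8.43 to 25.8 CPM) and Ehd3 (8.05 to 16.1 CPM) were above 1 CPM, while Pecam1 and Cdh5 had at most 6 and 4 counts, and the list summed to 17.9 to 40.0 CPM. The tubular list summed to 2.62 to 47.1 CPM, mainly Lrp2 and Cdh16, with Slc34a1, Umod and Slc12a3 at 0 counts, and the leukocyte list to 1.79 to 4.98 CPM, with Cd3e at 0 counts. The summed level of the mesangial list in total RNA was 13508 to 17483 CPM in WT and 18990 to 19297 CPM in miR-379KO MMC.

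TGF-β signals through a short chain. The ligands are secreted in a latent complex and, once released, bind the type II receptor Tgfbr2, which phosphorylates the type I receptor Tgfbr1, while Tgfbr3 (betaglycan) is a co-receptor that presents ligand, TGF-β2 in particular. Tgfbr1 then phosphorylates Smad2 and Smad3, which join Smad4 and enter the nucleus, and Smad7 is the inhibitory Smad that acts back on the receptor. In mesangial cells the pathway is known for driving matrix accumulation, and several microRNAs act on its members.

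The sequence of the deleted microRNA is shown first, since AGO2-IP asks which RNAs it and other microRNAs hold. The mature forms below are from RefSeq (GRCm38.p6), where miR-379-5p lies at chr12:109709065-109709085 and miR-379-3p at chr12:109709102-109709123, both on the plus strand. The capitals mark the seed, bases 2 to 8.

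mmu-miR-379-5p: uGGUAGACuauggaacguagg
mmu-miR-379-3p: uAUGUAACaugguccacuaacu

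A 3′-UTR match to the miR-379-5p seed (GTCTACC on the transcript strand) was present in 777 of the 19140 genes with an annotated 3′-UTR, or 4.06%. Of the 10 genes only Smad4 held one, and Smad4 also held 2 of the matches to the miR-379-3p seed (GTTACAT) that 6.90% of 3′-UTRs contained. The Smad4 3′-UTR was 5692 bases long, and of 3′-UTRs of similar length 17.4% held the 5p match and 30.6% the 3p match. The Tgfb1 3′-UTR was the shortest of the set at 135 bases. A match of letters is a description of the window searched and not evidence of binding.

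Seed matches of 5 other microRNAs known in the TGF-β field were searched. Those of miR-21a-5p and miR-192-5p are shown because they fell in both kinase receptors, a choice made after the matches were seen. Those of miR-93-5p (GCACTTT), miR-200b-3p (CAGTATT) and miR-29b-3p (TGGTGCT) were in 4, 2 and 1 of the 10 genes, and in 11.1%, 12.4% and 12.2% of all 3′-UTRs. Capitals mark the seed in the microRNAs and its match in the sites, each printed on the transcript strand.

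mmu-miR-21a-5p: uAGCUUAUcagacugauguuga
Tgfbr1: tcacctgcttaaATAAGCTctt
Tgfbr2: gactgtcatggcATAAGCTgtg
mmu-miR-192-5p: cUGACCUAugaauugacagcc
Tgfbr1: taaaaattgagaTAGGTCAtgg
Tgfbr2: gtgtgacctcatTAGGTCAggg

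In Tgfbr1 (plus strand) the ATAAGCT match lies at chr4:47412735-47412741 and the TAGGTCA match at chr4:47413159-47413165. In Tgfbr2 (minus strand) they lie at chr9:116090136-116090142 and chr9:116088580-116088586. ATAAGCT occurred in 6.28% and TAGGTCA in 5.56% of the 19140 3′-UTRs, and each occurred in 3 of the 10 genes. Among 3′-UTRs of similar length these shares were 20.3% and 18.7% for Tgfbr1 and 12.9% and 12.1% for Tgfbr2.

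In total RNA the ligand Tgfb3 was the most abundant of the 10 genes per length and the co-receptor Tgfbr3 the least, in both genotypes. On the scale of CPM per kb of exon, Tgfb3 reached 138 ± 20.7 (SD, n = 2) in WT and 146 ± 29.3 in miR-379KO MMC. Tgfb1 followed with 56.8 ± 6.11 and 53.5 ± 0.656, then Smad3 with 46.4 ± 5.19 and 43.1 ± 6.82. Tgfbr2 stood at 23.1 ± 1.21 in WT and 18.3 ± 1.04 in miR-379KO MMC.

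Below these the order was less sharply resolved. In WT MMC, Tgfb2 (18.9 ± 3.64 CPM per kb), Smad7 (18.1 ± 3.32), Tgfbr1 (14.5 ± 8.88) and Smad4 (13.2 ± 1.67) overlapped each with its neighbour in the order, and in miR-379KO MMC Smad7, Tgfb2 and Smad4 did so. Smad2 (7.44 ± 1.16 in WT) and Tgfbr3 (1.76 ± 0.704 in WT) lay below all others in both genotypes. In AGO2-IP the order of the first 3 genes was again Tgfb3, Tgfb1 and Smad3, and Smad2 and Tgfbr3 were again lowest, while Smad7 came next after Smad3. The plot of levels by library shows all 8 libraries.

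**Figure D1:**
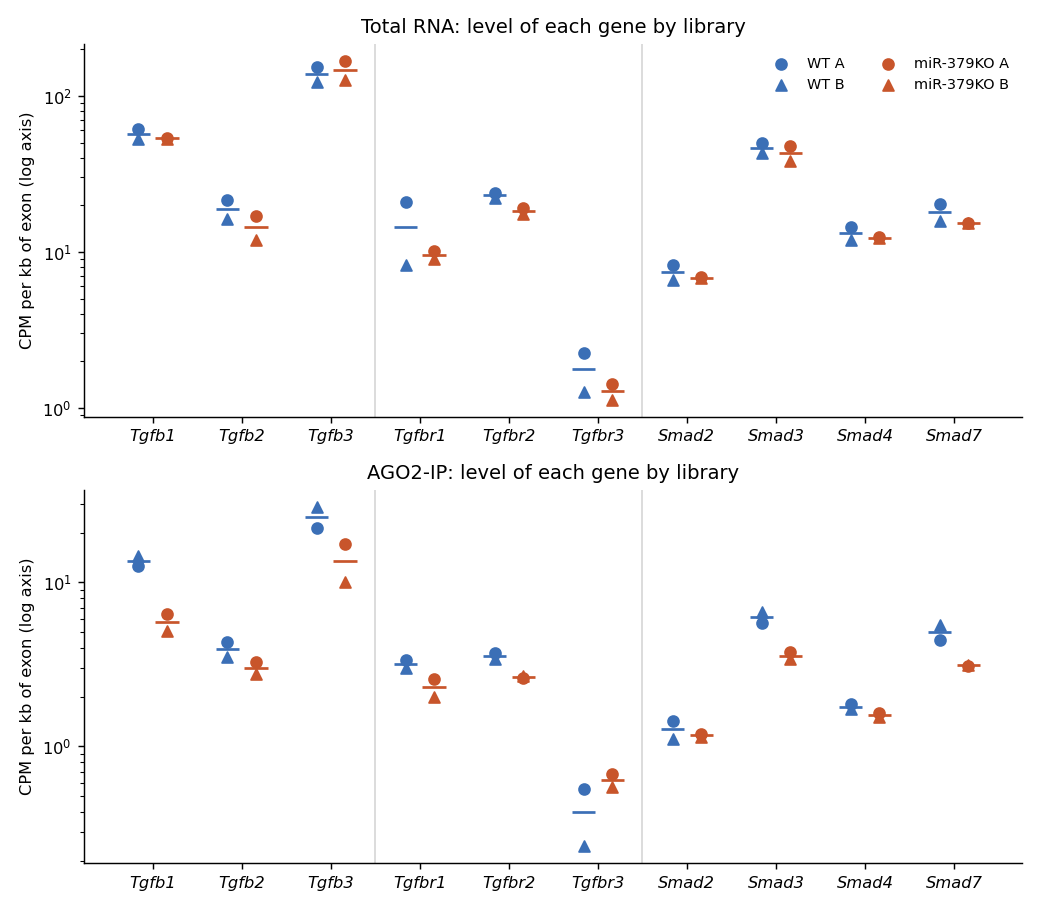
Level of the 10 genes in CPM per kb of exon (log axis) in the 4 total RNA libraries (top) and the 4 AGO2-IP libraries (bottom), with circles for library A, triangles for library B and a line at each group's mean. Tgfb3 is highest and Tgfbr3 lowest in every group, and WT A stands above the other total RNA libraries for Tgfbr1. In AGO2-IP both miR-379KO libraries lie below both WT libraries for every gene except Tgfbr3 and Smad2.

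To ask whether loss of miR-379 changed the transcript levels of the pathway, total RNA of miR-379KO MMC was compared to that of WT MMC. None of the 10 genes passed the threshold, an adjusted p-value under 0.05 in edgeR's quasi-likelihood test with Benjamini-Hochberg adjustment. The background was the same, with 0 of 12321 genes (0%) called, 91 genes at an unadjusted p-value under 0.05, none of them one of the 10, and 0 calls by DESeq2. At the cutoff of the study, a 1.5-fold change with an unadjusted p-value under 0.05, none of the 10 passed either, where 0.682% of genes did. The fitted log2 changes ran from −0.60 (Tgfbr1) to 0.09 (Tgfb3) with a median of −0.18, compared to −0.01 over all genes tested, and 9 of the 10 lay below 0 where 51.3% of all genes did. With the spread between these libraries, the self-test on simulated counts recovered 14 of 100 genes changed by 2-fold and 92 of 100 changed by 4-fold. The 0 calls therefore leave 2-fold changes possible.

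For the ligands, total RNA levels of the genotypes lay close together. Tgfb1 had 133 and 114 CPM in WT A and B, against 117 and 115 CPM in the miR-379KO pair, with a log2 fold change of −0.09 (95% interval −0.58 to 0.41). Tgfb3 had 516 and 417 CPM in WT, compared to 566 and 426 CPM in miR-379KO MMC (log2 fold change 0.09, −0.57 to 0.75). Tgfb2 had 111 and 84.7 against 88.8 and 62.1 CPM, with a log2 fold change of −0.38 (−1.03 to 0.27). The genotypes overlapped for each ligand, and the intervals leave room for changes of either sign.

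Among the receptors, Tgfbr2 was lower in both miR-379KO libraries, at 91.3 and 84.2 CPM, than in both WT libraries, at 115 and 107 CPM. Its log2 fold change of −0.34 ± 0.20 (SE) did not pass (edgeR adjusted p-value 1). Tgfbr1 had 125 CPM in WT A and 49.4 in WT B, against 60.9 and 54.0 CPM in the miR-379KO pair. Its log2 change of −0.60 rested on WT A, as it was 0.22 without that library and −1.12 without WT B. The co-receptor Tgfbr3 had 13.8 and 7.72 CPM in WT, compared to 8.70 and 6.87 CPM in miR-379KO MMC, and its log2 change moved from −0.46 to 0.02 without WT A.

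The Smads had log2 changes of −0.23 to −0.10 in total RNA. Smad3 had 255 and 217 CPM in WT, compared to 244 and 195 CPM in miR-379KO MMC, with a log2 fold change of −0.10 ± 0.24 (SE). Smad2 and Smad4 changed by −0.12 ± 0.22 and −0.10 ± 0.21 on the log2 scale. Smad7 had 90.6 and 69.7 CPM in WT, compared to 68.4 and 67.8 CPM in miR-379KO MMC, so that its genotypes did not overlap although the gap between WT B and miR-379KO A was 1.29 CPM. Smad7 and Tgfbr2 were 2 of the 10 genes without overlap, against 19% of all genes tested. Leaving out WT A turned the sign for Tgfb1, Tgfbr1, Tgfbr3, Smad2, Smad3 and Smad4.

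In AGO2-IP, 4 of the 10 genes were lower in miR-379KO than in WT MMC and none was higher. They were the ligands Tgfb1 and Tgfb3, the receptor-activated Smad3 and the inhibitory Smad7. Across the 13505 genes tested in AGO2-IP, 9.52% were called lower and 21.4% higher. The same 4 genes, and no others of the 10, passed the cutoff of the study, as did 13.3% of all genes in the lower direction. Of the 10 fitted changes 9 lay below 0, compared to 50.6% of all genes. The 9 genes other than Tgfbr3 averaged over 1000 counts in total RNA, and among the 3651 tested genes that did, 26.4% were called lower, 0.192% higher and 90.5% had a fitted change below 0, with a median log2 change of −0.45. The median of these 9 was −0.47. This grouping by total RNA level was made with earlier results in view.

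Tgfb1 changed most. It had 278 and 272 counts (27.3 and 31.5 CPM) in WT A and B, against 118 and 86 counts (13.8 and 11.0 CPM) in the miR-379KO pair. Both miR-379KO libraries thus had less than the lower WT library, and the log2 fold change was −1.24 ± 0.23 (SE, edgeR adjusted p-value 0.000689). At the 0.629th percentile of all log2 changes in AGO2-IP, it stood far toward the lower end. No percentile was taken among genes with over 1000 total RNA counts, of which 90.5% had a fitted change below 0. It was called in each of the 12 alternative fits, with adjusted p-values up to 0.0233.

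Tgfb3 had 745 and 841 counts (73.0 and 97.2 CPM) in WT AGO2-IP, compared to 494 and 266 (58.0 and 34 CPM) in miR-379KO AGO2-IP. Its log2 fold change was −0.89 ± 0.28 (SE, edgeR adjusted p-value 0.0198). The 2 miR-379KO libraries differed by 1.71-fold, more than those of any other member in that group. Tgfb2 had 22.4 and 18.3 CPM in WT, compared to 17.0 and 14.3 CPM in miR-379KO AGO2-IP, without overlap, but its log2 change of −0.38 ± 0.22 did not pass (adjusted p-value 0.205).

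Of the Smads, Smad3 and Smad7 passed in AGO2-IP and Smad2 and Smad4 did not, while the difference between these genes was not tested. Smad3 had 293 and 292 counts (28.7 and 33.8 CPM) in WT, compared to 162 and 135 (19.0 and 17.2 CPM) in miR-379KO AGO2-IP, a log2 fold change of −0.78 ± 0.23 (SE, edgeR adjusted p-value 0.0122). Smad7 had 201 and 211 counts (19.7 and 24.4 CPM) in WT, compared to 117 and 109 (13.7 and 13.9 CPM) in miR-379KO AGO2-IP, a log2 fold change of −0.67 ± 0.22 (adjusted p-value 0.0256). Smad2 overlapped between genotypes, with 13.0 and 10.2 against 10.9 and 10.5 CPM (log2 −0.12 ± 0.23, adjusted p-value 0.717).

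Smad4, the gene with the miR-379 seed matches, had 140 and 111 counts (13.7 and 12.8 CPM) in WT, compared to 104 and 90 (12.2 and 11.5 CPM) in miR-379KO AGO2-IP. Both miR-379KO values lay below both WT values, and the log2 change of −0.16, with a 95% interval from −0.62 to 0.29, did not pass (adjusted p-value 0.599). Of all genes tested, 68.4% had no overlap. Genes with over 1000 total RNA counts, as Smad4 had, showed a median log2 change of −0.45.

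None of the receptors passed in AGO2-IP. Tgfbr1 had 20.2 and 18.2 CPM in WT, compared to 15.6 and 12 CPM in miR-379KO (log2 −0.47 ± 0.22, edgeR adjusted p-value 0.111). Tgfbr2 had 17.6 and 16.3 against 12.4 and 12.8 CPM (log2 −0.43 ± 0.22, adjusted p-value 0.134). For both, all miR-379KO values lay below all WT values. Tgfbr3 went the other way with few counts, 34 and 13 in WT, compared to 35 and 27 in miR-379KO AGO2-IP, and a log2 change of 0.62 ± 0.36 that did not pass (adjusted p-value 0.20). Smad2 was the 1 gene of the 10 whose genotypes overlapped in AGO2-IP, where 68.4% of all genes tested had no overlap.

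Which of the 4 passed depended on single libraries and on scaling. Without WT B or without miR-379KO B only Tgfb1 was called, without miR-379KO A 3 genes were called, and without WT A 5 were, Tgfbr3 among them as higher (log2 1.26). When the scaling factors came from genes averaging at least 100 total RNA counts, the median of all genes moved from −0.01 to 0.23, Tgfb1 alone was called (−0.99), and Smad2 and Smad4 turned to 0.12 and 0.08.

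**Figure D2:**
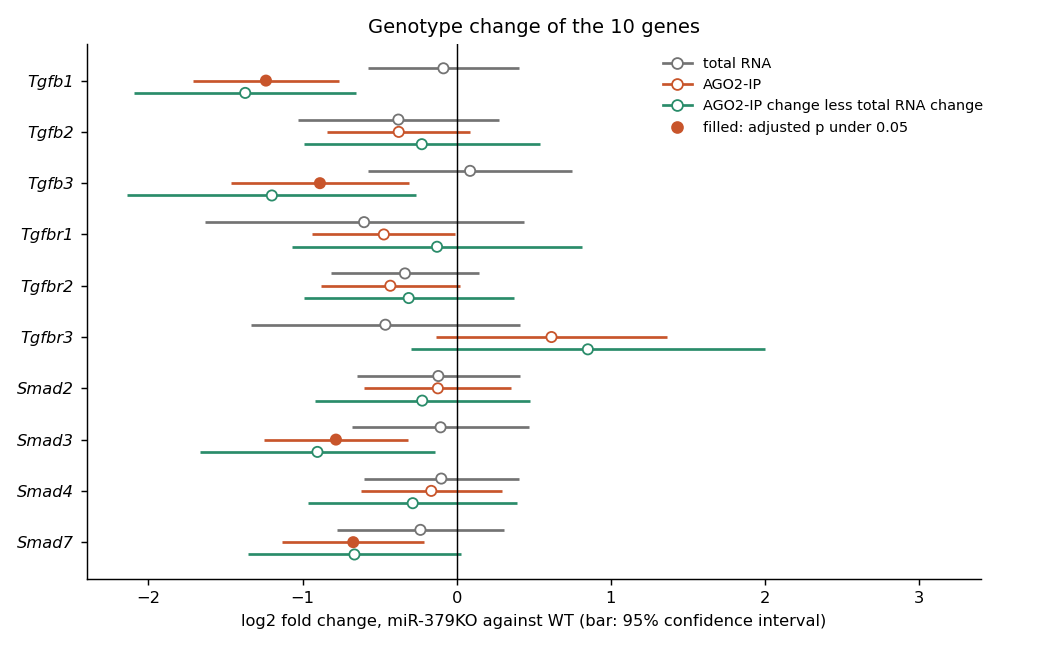
Log2 fold change of each gene in miR-379KO against WT MMC in total RNA (grey), in AGO2-IP (orange) and as the difference of the 2 changes (green), with 95% confidence intervals as bars and filled points for an adjusted p-value under 0.05. The only filled points are the AGO2-IP values of Tgfb1, Tgfb3, Smad3 and Smad7, and every total RNA interval spans 0.

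The difference between the AGO2-IP change and the total RNA change was tested as an interaction in a fit of all 8 libraries. No member passed, as was so for all 17429 genes tested (0% called), although 2733 genes had an unadjusted p-value under 0.05 and DESeq2 called 211. The AGO2-IP change of Tgfb1 was lower than its total RNA change by −1.37 ± 0.34 on the log2 scale (unadjusted p-value 0.000895, edgeR adjusted p-value 0.234). For Tgfb3 the difference was −1.20 ± 0.44 (unadjusted 0.0151), for Smad3 −0.90 ± 0.36 (0.0229) and for Smad7 −0.66 ± 0.33 (0.0592). The other 6 ran from −0.31 (Tgfbr2) to 0.85 (Tgfbr3). The labels do not say whether same-letter libraries of the 2 assays came from 1 culture. Over 4856 genes the log2 difference between A and B in total RNA correlated with that in AGO2-IP at 0.32 within WT and 0.26 within miR-379KO MMC, and at −0.11 and 0.22 between genotypes. A fit that took them as 1 culture, added after the data were seen, called 1108 genes, with Tgfb1 (−1.38, edgeR adjusted p-value 0.00415) and Tgfb3 (−1.22, 0.0276) among them. Values near the threshold depended on the fit, since DESeq2 called Tgfb1 (adjusted p-value 0.00921), as did edgeR without WT total RNA B, a fit that called 1547 genes. Among genes with over 1000 total RNA counts, 94% had a difference below 0 with a median of −0.68, compared to a median of −0.31 for the 9 members in that range.

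Within each genotype, AGO2-IP was also set against total RNA. The 2 assays were prepared differently, so this ratio holds library preparation as well as AGO2 binding, and calls here needed a 2-fold difference as well. In WT MMC none of the 10 genes was called, where 43.1% of 17429 genes were (7507 calls, 9985 at an unadjusted p-value under 0.05). The log2 ratio nearest to a call was that of Smad7, at 0.64 ± 0.23 (edgeR adjusted p-value 0.0272, under 2-fold). In miR-379KO MMC 3 genes were called against 61% of all genes, 19.3% lower and 41.6% higher. Smad3 (−1.32 ± 0.26) and Tgfb3 (−1.15 ± 0.32) were lower in AGO2-IP and Tgfbr3 (1.23 ± 0.38) was higher. With the log counts offset by GC and exon length, 3 genes in WT and 8 in miR-379KO MMC were called, all of them lower in AGO2-IP. Tgfbr1 turned from 0.35 to −1.16 in WT and from 0.22 to −2.23 in miR-379KO MMC. The shares of 43.1% and 61% come from the fit without the offset. No share under the offset is given, so these counts are not a result about the 10 genes.

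The make-up of each family within a library needs no scaling between libraries and is given as a share of the family's counts, with 95% Wilson intervals that cover counting error only. Tgfb1 made up 22.2% (20.01 to 24.6) and 21.4% (19.2 to 23.7) of ligand counts in WT AGO2-IP, compared to 15.6% (13.2 to 18.3) and 18.5% (15.3 to 22.3) in miR-379KO AGO2-IP. Its share in total RNA was 17.5% and 18.5% in WT, compared to 15.2% and 19.1% in miR-379KO MMC, so that the miR-379KO values lay on both sides of the WT values there. Tgfb3 took from 57.3% to 73.3% of ligand counts in every library.

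Smad3 made up 38.2% (34.8 to 41.7) and 41.6% (38.0 to 45.3) of the counts of the 4 Smads in WT AGO2-IP, compared to 34.03% (29.9 to 38.4) and 32.4% (28.1 to 37.1) in miR-379KO AGO2-IP, while the total RNA libraries held 46.7% to 51.9%. Smad7 held 24.6% to 30.1% of Smad counts in AGO2-IP and 14.6% to 17.1% in total RNA. The share of Smad7 was thus higher in each AGO2-IP library than in any total RNA library, in both genotypes. Tgfbr3 made up 8.10% and 4.18% of receptor counts in the WT AGO2-IP libraries and 12.8% and 12.2% in the knockout ones. In total RNA it held 4.71% to 5.43%. These shares keep any counts from RNA spread over the genome, whose level is taken below from genes silent in total RNA. For AGO2-IP that level would account for 55.4% (A) and 81.9% (B) of knockout Tgfbr3 counts, against 25.1% and 44.3% of wild-type ones. For Smad3 it was 10.0% and 13.7% of knockout counts, against 2.44% and 1.65% of wild-type ones. The part of this level in the share differences was not tested.

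**Figure D3:**
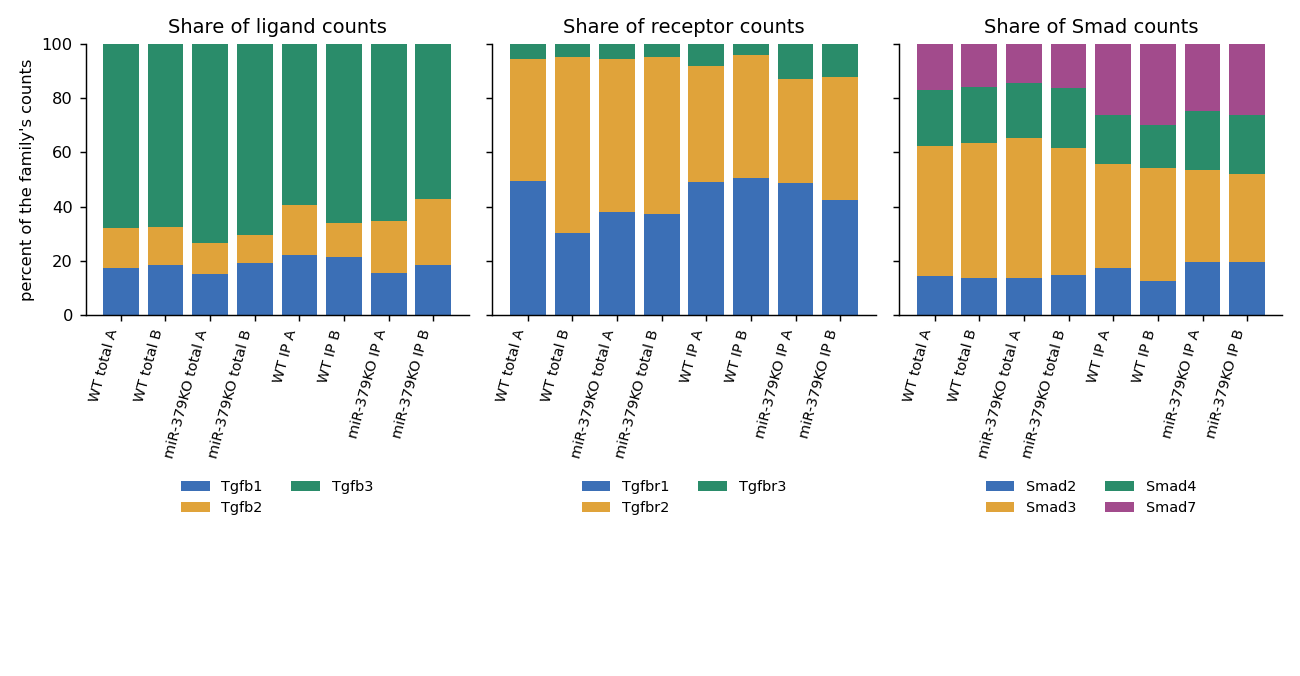
Stacked shares of counts within each library for the 3 ligands, the 3 receptors and the 4 Smads (0 to 100%). Tgfb3 fills most of the ligand bar in all 8 libraries, WT total A has a larger Tgfbr1 part (49.3%) than WT total B (30.2%), and the Smad7 part is larger in the AGO2-IP libraries than in the total RNA libraries.

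Part of a gene's AGO2-IP counts can come from RNA spread over the genome rather than from its own transcripts. A level for this was read from 4804 autosomal protein-coding genes with 0 counts in every total RNA library (silent genes). They had 1.404 and 0.945 counts per kb of exon in the WT libraries, compared to 3.19 and 3.63 in the miR-379KO libraries. Scaled by exon length, this level would account for 25.1% and 44.3% of the Tgfbr3 counts in WT, compared to 55.4% and 81.9% in miR-379KO AGO2-IP, and for 9.65% and 9.81% of the Smad2 counts in WT, compared to 31.3% and 40.5% in miR-379KO AGO2-IP. For Tgfb1 it was 1.10% and 0.755% in WT, compared to 5.87% and 9.18% in miR-379KO AGO2-IP, and for Tgfb3 at most 4.62% in any library.

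With that level subtracted, all 10 log2 changes in AGO2-IP were below 0, given here without a test. The level took a larger percent of each gene's counts in miR-379KO than in WT libraries, so subtraction lowered each change by design. It was not run over all genes, so no share stands beside this count. Tgfbr3 moved from 0.62 to −0.44, Smad2 from −0.12 to −0.61 and Smad4 from −0.16 to −0.51. The change of Tgfb1 was −1.34, of Tgfb3 −0.93, of Smad3 −0.94 and of Smad7 −0.85, so these were again the 4 lowest values. The other 2 receptors followed with −0.71 (Tgfbr1) and −0.63 (Tgfbr2).

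**Figure D4:**
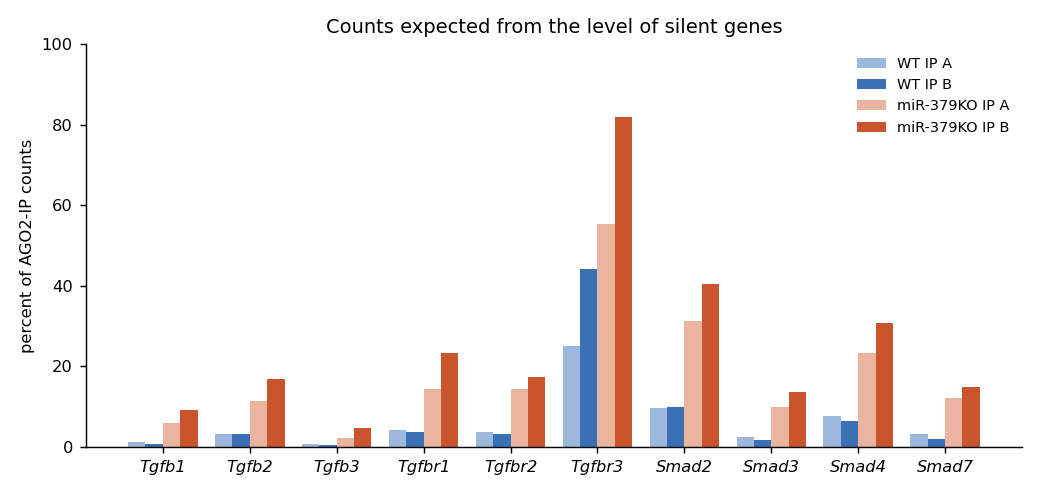
Percent of each gene's AGO2-IP counts that the level of silent genes, scaled by exon length, would account for, in the 4 AGO2-IP libraries. Every gene has a larger percent in both miR-379KO libraries than in both WT libraries, from 2.18% for Tgfb3 in miR-379KO A to 81.9% for Tgfbr3 in miR-379KO B.

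Of the markers of other cells, the tubular and leukocyte lists were higher in both miR-379KO than in both WT AGO2-IP libraries. The summed level of the 8 tubular markers was 6.76 to 8.44 CPM in WT, compared to 21.0 to 27.0 CPM in miR-379KO AGO2-IP, with 0 markers at 0 counts in either group. That of the 5 leukocyte markers in the lists was 2.78 to 3.04 and 7.86 to 11.1 CPM. In total RNA both lists overlapped between genotypes. The tubular list had 2.62 to 47.1 CPM in WT and 9.46 to 27.0 CPM in miR-379KO MMC, the leukocyte list 1.79 to 4.98 and 1.82 to 4.65 CPM. Slc34a1, Umod, Slc12a3 and Cd3e had 0 counts in every total RNA library, the rule for silent genes. The share of the silent-gene level in these lists was not computed. The 7 podocyte markers, at 26.0 to 72.6 and 33.3 to 60.8 CPM, and the 7 endothelial markers, at 5.78 to 13.5 and 11.5 to 12.6 CPM, overlapped between genotypes. The 11 mesangial markers summed to 1200 to 1538 CPM in WT, compared to 694 to 962 CPM in miR-379KO AGO2-IP. The part of these levels in the changes of the 10 genes was not tested.

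The 4 genes that fell in AGO2-IP shared a feature that the choice of genes did not use. They were the 4 with the highest exon GC content, Tgfb1 with 62.5%, Smad7 with 57.6%, Smad3 with 53.1% and Tgfb3 with 52.9%, while the other 6 ranged from 41.0% (Tgfbr1) to 51.3% (Tgfbr2). Over the 10 genes the AGO2-IP log2 change had a Spearman correlation of −0.70 with GC content, 0.88 with exon length and −0.89 with total RNA level per kb. Over 13473 tested genes the same correlations were −0.49, 0.14 and −0.78. All points come from the same 4 AGO2-IP libraries and are not independent, so these values are descriptions. With GC and exon length offset, 5 of the 10 genes were called lower, and Smad7 was not among them (−0.39) while Tgfb2 (−0.61) and Tgfbr1 (−1.16) were. The share of all genes called under this offset is not given, so that count is not a result about the 10 genes. The part of GC content in their changes was not tested.

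The transcripts and loci behind these values are in GRCm38.p6. Tgfb1 lies at chr7:25687002-25705077 (plus strand, 7 exon blocks), Tgfb3 at chr12:86056743-86079041 (minus strand) and Smad3 at chr9:63646766-63757994 (minus strand). None of the annotated genes overlapped Tgfb1 or Tgfb3, whereas Smad3, Smad7, Tgfb2 and all 3 receptors had a predicted gene on the opposite strand, which the strand-specific counting kept apart. Tgfb1 had the shortest exon length of the 10, at 2175 bases, and Smad2 the longest, at 9142 bases.

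Other genes of the pathway were counted from lists of 101 further genes. In total RNA none was called in any list. The smallest p-values among the TGF-β target genes there were those of Postn (log2 −0.90 ± 0.23, unadjusted p-value 0.00656) and Col3a1, a fibrillar collagen gene (−0.66 ± 0.26, 0.0401), which both passed the cutoff of the study as lower but had edgeR adjusted p-values of 0.9997. In AGO2-IP, 14 of the 26 tested TGF-β target genes were lower and 0 higher, with a median log2 change of −0.86, compared to 9.52% lower and 21.4% higher over all genes and 26.4% and 0.192% among genes with over 1000 total RNA counts. The matrix genes Col1a1 (−1.25 ± 0.37, edgeR adjusted p-value 0.0132), Fn1 (−1.24 ± 0.38, 0.0157) and Col4a2 (−1.09 ± 0.34, 0.0173), which encode fibrillar collagen, fibronectin and basement membrane collagen, and Bhlhe40 (−1.11 ± 0.33, 0.0213), a transcription factor, were named by the rule for the largest changes. Their log2 changes in total RNA were −0.41, −0.14, −0.19 and −0.14. They averaged 26321, 57278, 8327 and 86.5 counts in AGO2-IP. The target list was not matched for level to the genes with over 1000 total RNA counts. Over all tested genes the AGO2-IP change had a Spearman correlation of −0.78 with total RNA level per kb. The part of level in the calls of this list was not tested. Postn, a matricellular protein gene, was the 1 tested target with a value above 0 (0.48, adjusted p-value 0.121). Fewer targets were called without miR-379KO B or without WT B, and calls over all genes fell in those fits as well.

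Of the 19 tested genes that hold or release latent TGF-β, 8 were lower and 4 higher in AGO2-IP, with a median of −0.73. The 4 higher of 19 were close to the 21.4% called higher over all genes. The 8 lower stand beside 9.52% called lower over all genes and 26.4% among genes with over 1000 total RNA counts. Not all 19 reached that level. Lrrc32, which encodes the surface protein GARP that anchors latent TGF-β, fell from 1206 and 1644 counts in WT MMC to 627 and 471 in miR-379KO AGO2-IP (log2 −1.20 ± 0.29, edgeR adjusted p-value 0.00373). Thbs1 (thrombospondin 1, an activator, −1.03), Furin (the convertase that cleaves the precursors, −1.03) and Itgb5 (an integrin chain, −0.98) were also lower.

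The 4 higher genes of that list, Itgb6 (2.06), Nrros (1.68), Fbn2 (1.54) and Dcn (1.31), had mean counts under the 50 required for naming and were picked out after their values were seen. The level of silent genes was higher by 1.76 on the log2 scale in miR-379KO than in WT AGO2-IP, at 0.419 against 0.123 CPM per kb of exon. Scaled by exon length it would account for at least 80.4% of the Itgb6 counts in WT and 66.3% in miR-379KO AGO2-IP, for all Nrros counts, for 50.7% to 64.2% of the Fbn2 counts and for 16.4% to 28.3% of the Dcn counts. Itgb6 was not tested in total RNA, where it did not pass the filter. Fewer genes of this list were called without miR-379KO B, WT B or miR-379KO A, and calls over all genes fell in those fits as well. In total RNA, Lrrc32 had the smallest unadjusted p-value of the list (log2 −0.61 ± 0.27, unadjusted p-value 0.0635).

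The remaining lists had few calls, to be read against 9.52% of all genes called lower and 21.4% called higher. Of the Smad partners and regulators 4 of 21 were lower and 0 higher, namely the repressor Ski (−0.90), the kinase Hipk2 (−0.72) and the coactivators Crebbp (−0.71) and Ep300 (−0.65), with a median of −0.35. Of the other Smads 0 of 4 passed in edgeR, with Smad6, the second inhibitory Smad, at −0.73 ± 0.32 (adjusted p-value 0.0845) as the 1 gene with an unadjusted p-value under 0.05. Of the non-Smad arm only the adaptor Shc1 was lower (−0.57, adjusted p-value 0.0497), 1 of 12. Of the related receptors and co-receptors 2 of 11 were higher, Acvr1c (1.76) and Bmpr1b (1.25), both named after their values were seen, and 0 were lower. The silent-gene level would account for 77.7% to 97.7% of the Acvr1c counts and 29.0% to 58.6% of the Bmpr1b counts in AGO2-IP, and Acvr1c was not tested in total RNA.

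**Figure D5:**
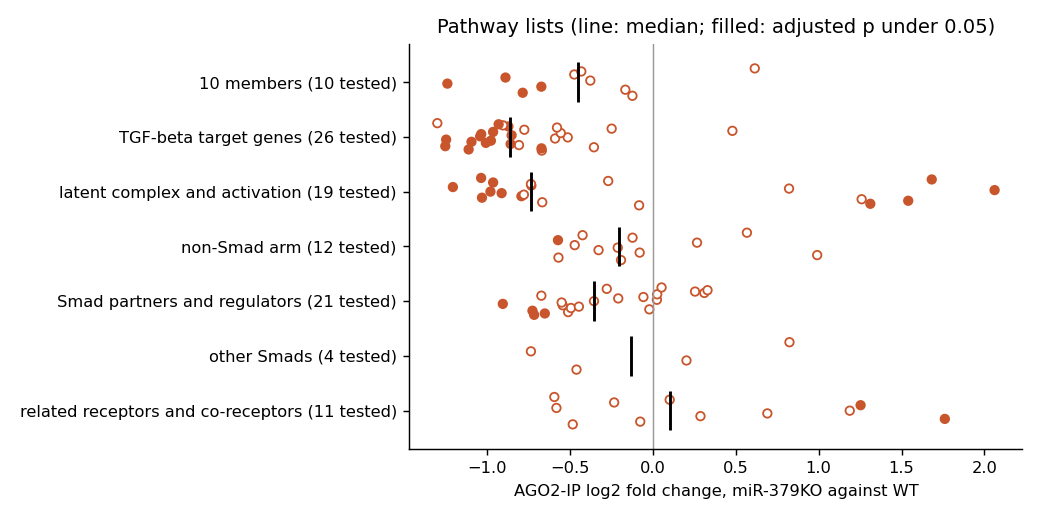
AGO2-IP log2 fold change of each tested gene (points, filled for an adjusted p-value under 0.05) in the 10 members and 6 other lists, with a black line at each list's median. The target genes (median −0.86) and the latent complex genes (median −0.73) lie lower than the members (−0.45), and the related receptors have a median of 0.10.

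Other genes followed the same pattern over the 8 libraries once each assay's mean was removed. Among 4855 genes averaging at least 50 counts in each assay, those with the highest Pearson correlation of log2 CPM with Tgfb1 were Lurap1l (0.998), Sap130 (0.995) and Arhgef40 (0.995). For Tgfbr2 they were Ice1 (0.982), Dennd2a (0.973) and Mical3 (0.966), and for Smad3 Cep164 (0.989), Mgrn1 (0.986) and Amotl1 (0.986). These values were ranked from many genes over few libraries and are given as a description.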

How the data were processed

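Total RNA and AGO2-IP RNA of WT and miR-379KO MMC were sequenced in 8 libraries. The authors deposited raw gene counts, 1 list per library, after alignment to mm10 with TopHat and Bowtie2 2.1.0.1 and strand-specific counting on RefSeq genes with HTSeq 0.6.0, as the methods and submitters' processing notes state. The closing lines of each list (reads outside genes, ambiguous or not uniquely placed) were kept out of library sizes and tests; reads outside genes were 6.41% to 8.81% of uniquely placed reads in total RNA and 46.6% to 76.4% in AGO2-IP. Total RNA was poly(A) selected, while AGO2-IP used cross-linked, sonicated lysates and adapter ligation.

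The 10 genes, the pathway lists and the tests were chosen with earlier results of these data known. Counts were tested in edgeR 4.0.16 (R 4.3.3; limma 3.58.1) with TMM factors, filterByExpr (minimum count 10) and quasi-likelihood F tests on robust dispersion estimates, with Benjamini-Hochberg adjustment over all genes tested and calls under 0.05. Genotypes were compared on the 4 libraries of each assay, and the interaction and the assay comparisons on all 8. Genes of other lists were named if called, averaging 50 counts or more, with genotypes that did not overlap, up to 4 per list and direction, or, where a list had no call, by the smallest 2 p-values. Where this gave none, genes were named after their values were seen, and the text says so. Entries were matched to RefSeq (GRCm38.p6) by symbol (23602) or synonym (721), and 316 did not match. The genotype comparison of each assay and the interaction were tested on simulated counts with a common dispersion. In AGO2-IP the test recovered 47 of 100 genes changed 2-fold and 96 of 100 changed 4-fold. For the interaction it recovered 6 and 55 of 100. The comparisons of AGO2-IP against total RNA and the alternatives were not simulated. Replicates A and B were not duplicates, as chi-square per degree of freedom was 3.51 to 119. Same-letter libraries had deviations that correlated at −0.07 (total RNA, 10763 genes) and 0.04 (AGO2-IP, 4971 genes), so the letters were not taken to pair them. Alternatives were DESeq2 1.42.0, RLE factors, no filter, the replicate block, a GC and exon length offset (lowess span 0.3), TMM factors set on genes averaging 100 total RNA counts or more, 1 fit of all libraries, subtraction of silent-gene counts, omission of each library and, added after the data were seen, a culture block. The level of 1 marker gene is not reported here.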

Additional observations from a re-analysis of the deposited data

Results flagged for a closer look

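The signal outside genes in miR-379KO AGO2-IP was singled out because it lies in reads that no comparison used and exceeds the level in WT AGO2-IP. It made up 74.9% ± 2.10 (SD, n = 2) of uniquely placed reads, compared to 48.1% ± 2.20 in WT AGO2-IP. The part of these reads in the lower counts of Tgfb1, Tgfb3, Smad3 and Smad7 was not tested.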

How the results depend on the processing

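The count of 0 calls in total RNA held for the 10 genes and for all genes under each of the 12 alternatives run. In AGO2-IP, Tgfb1 was called under all 12 alternative fits (log2 −1.51 to −0.84), while Tgfb3 and Smad3 were each not called in 5 and Smad7 in 7. The replicate block left 4 of the 10 called in AGO2-IP and changed none of their calls (3817 genes called), but called 9 target genes against 14 and gave 8 genes in the interaction against 0. In AGO2-IP the members had 13 to 841 counts per library, and with 2 libraries per group the standard errors of their log2 changes were 0.22 to 0.36. Leaving out a library left an arm of 1 sample, assumed to vary like the others. The causes of the shifts below were not tested.

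DESeq2 called 1400 genes in AGO2-IP and 211 in the interaction (1 member, Tgfb1), where Tgfb2, Tgfbr1 and Smad2 turned to 0.043, 0.15 and 0.035. Against total RNA, Tgfb3 turned to −0.056 in WT and Smad7 to 0.13 in miR-379KO MMC. RLE factors turned the same 5 values to 0.051, 0.16, 0.045, −0.033 and 0.16. Over all genes the median of the interaction was 0.01, but 0.61 with DESeq2, 0.28 with RLE factors, −0.33 with the GC and length offset and 0.43 with TMM factors set on genes present in total RNA. The GC and length offset gave 9 target genes in AGO2-IP, 956 genes in the interaction, 3 members in WT and 8 in miR-379KO MMC against total RNA. It turned Smad2 and Smad4 in total RNA to 0.11 and 0.077, in WT against total RNA Tgfb1, Tgfb2, Tgfb3, Tgfbr1 and Tgfbr3 to −0.21, −0.60, −0.51, −1.16 and −0.40, and in miR-379KO Tgfb2 and Tgfbr1 to −1.14 and −2.23. With the replicate block added to the offset these were 0.12, 0.081, −0.20, −0.61, −0.47, −1.13, −0.43, −1.14 and −2.25, with 2 members, 6 latent complex genes and 5 target genes called in AGO2-IP, 1838 genes and 2 members in the interaction, and again 3 and 8 members against total RNA.

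Those TMM factors left 1 member and 6 target genes in AGO2-IP, with Smad2 and Smad4 at 0.12 and 0.081, and called 5 genes in the interaction, where Tgfb2, Tgfbr1, Tgfbr2, Smad2 and Smad4 turned to 0.20, 0.32, 0.11, 0.20 and 0.14. Against total RNA they turned Smad2 to 0.087 in WT and Tgfbr2, Smad2 and Smad7 to 0.041, 0.29 and 0.54 in miR-379KO MMC, where 1 member was called. A fit of all 8 libraries called 686 genes in AGO2-IP, with 1 member, 3 latent complex genes and 2 target genes. Without a filter 16163 genes were called in miR-379KO MMC against total RNA, with Tgfb2 at −0.11. A culture block, added after the data were seen, called 1108 genes and 2 members (Tgfb1 and Tgfb3) in the interaction.

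Leaving out 1 library at a time gave these ranges. In total RNA the log2 changes were −0.19 to 0.032 for Tgfb1, −0.11 to 0.28 for Tgfb3, −1.12 to 0.22 for Tgfbr1, −0.82 to 0.019 for Tgfbr3, −0.27 to 0.054 for Smad2, −0.25 to 0.054 for Smad3 and −0.22 to 0.040 for Smad4. In AGO2-IP they were −0.33 to 0.0053 for Smad2, with 918 to 3337 genes, 1 to 5 members, 4 to 11 latent complex genes and 1 to 18 target genes called. In the interaction 0 to 1547 genes and 0 to 1 members were called, most without WT total RNA B, and Tgfbr1 ran from −0.82 to 0.33, Tgfb2 from −0.51 to 0.16, Smad2 from −0.30 to 0.17 and Smad4 from −0.35 to 0.018. Against total RNA in WT, Tgfb1 ran from −0.0019 to 0.39, Tgfb2 from −0.16 to 0.29, Tgfb3 from −0.50 to 0.055, Tgfbr1 from −0.13 to 0.98 and Tgfbr3 from −0.56 to 0.69, and in miR-379KO MMC Tgfb2 ran from −0.32 to 0.27.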
